A study of Mus musculus with 2 samples.

Results

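In cultured mouse B cells, 216 protein-coding genes had little RNA of their own while the kilobase before their start was transcribed. They were chosen from the Nedd4+/+ library as lines with a coding RefSeq transcript, a gene level below 0.5 RPKM and an upstream level of 0.5 RPKM or more, leaving out histone-named genes. RPKM is a read count scaled to the length of the transcript and the size of the library. The 216 lines are 2.08% of 10382 coding lines with a gene below 0.5 RPKM (called silent here) and came from a table of 23288 lines. The gene and upstream levels of the Nedd4+/+ library chose the members, so these levels and every ratio built on them are descriptions. The Nedd4-/- levels, the annotation of neighbouring genes and the sequence around the start did not enter the choice. The Nedd4+/+ level of a neighbour can share reads with the window, so it is not independent of the choice.

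RNA came from splenic B cells of mice made chimeric with fetal liver, a graft that supplies the blood lineages of the host. There was 1 library from Nedd4+/+ cells and 1 from Nedd4-/- cells, both of a B6 and 129 background backcrossed to B6. Cells of both genotypes had been cultured for 72 hours with LPS, a bacterial cell wall component, and the cytokine IL4, a combination that drives class switching to IgG1. Ribosomal RNA was depleted, so RNA without a poly(A) tail could be read as well. The labels name no separate animal or culture within a genotype and do not say which cells of the host remained, so a difference between the libraries has no replicate check and no p-value is given. Nedd4, a ubiquitin ligase gene, was at 7.59 RPKM in the Nedd4+/+ library and 1.95 RPKM in the Nedd4-/- library. All 7 B cell markers were present (4.73 to 183 RPKM and 5.11 to 155 RPKM). Of the T cell markers Cd247 was at 4.60 and 3.04 RPKM and the others at 0.371 RPKM or less, and no myeloid, natural killer, erythroid or stromal marker passed 0.772 RPKM in either library. The values correspond to 8.40 and 6.17 gigabases of reads, and 1 read pair of 202 bases in a window of 1 kb is worth 0.0241 and 0.0328 RPKM.

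The kilobase before a gene's start can hold RNA of several kinds. It can lie inside the end of the gene before it, since transcription runs past the last exon and genes are packed closely in some parts of the genome. It can also lie inside the first exon and intron of a gene that starts there in the other direction, because many promoters rich in CpG dinucleotides serve a pair of genes facing away from each other. Promoters of widely active genes are usually rich in CpG, and those of genes restricted to 1 tissue are often poor in it. Reads counted without regard to strand cannot say which of these a window holds, and the strand setting is not given in the sources used here.

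The start regions of 4 members show the arrangements the windows fall into. Each is 300 bases from RefSeq on GRCm38.p6, reading 250 bases before the annotated start and 50 after it, with CG dinucleotides in capitals. Fam83e (chr7:45720970-45721269 on the plus strand) and Vwa7 (chr17:35016329-35016628 on the plus strand) follow an active gene on their own strand, Tax1bp3 (chr11:73176833-73177132 on the plus strand) faces away from one, and Begain (chr12:109068168-109068467 on the minus strand) has no annotated gene within 10 kb beyond its upstream kb.
Fam83e: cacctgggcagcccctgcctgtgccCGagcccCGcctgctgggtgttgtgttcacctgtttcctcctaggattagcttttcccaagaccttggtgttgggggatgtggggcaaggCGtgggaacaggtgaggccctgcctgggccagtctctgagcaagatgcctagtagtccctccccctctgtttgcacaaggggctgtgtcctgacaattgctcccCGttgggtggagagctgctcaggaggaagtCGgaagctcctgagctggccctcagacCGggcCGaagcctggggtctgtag
Vwa7: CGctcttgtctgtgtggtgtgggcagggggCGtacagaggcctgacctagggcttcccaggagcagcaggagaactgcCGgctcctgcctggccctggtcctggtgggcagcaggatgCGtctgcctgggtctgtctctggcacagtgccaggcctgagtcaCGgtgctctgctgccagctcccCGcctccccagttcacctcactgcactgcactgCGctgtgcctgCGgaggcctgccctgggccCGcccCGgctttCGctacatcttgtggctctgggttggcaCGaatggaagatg
Tax1bp3: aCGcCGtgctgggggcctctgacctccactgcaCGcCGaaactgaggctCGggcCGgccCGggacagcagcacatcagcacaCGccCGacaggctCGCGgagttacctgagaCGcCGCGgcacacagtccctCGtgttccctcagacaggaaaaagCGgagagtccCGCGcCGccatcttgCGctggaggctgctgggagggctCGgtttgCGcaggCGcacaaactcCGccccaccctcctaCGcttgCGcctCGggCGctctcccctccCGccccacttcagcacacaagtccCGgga
Begain: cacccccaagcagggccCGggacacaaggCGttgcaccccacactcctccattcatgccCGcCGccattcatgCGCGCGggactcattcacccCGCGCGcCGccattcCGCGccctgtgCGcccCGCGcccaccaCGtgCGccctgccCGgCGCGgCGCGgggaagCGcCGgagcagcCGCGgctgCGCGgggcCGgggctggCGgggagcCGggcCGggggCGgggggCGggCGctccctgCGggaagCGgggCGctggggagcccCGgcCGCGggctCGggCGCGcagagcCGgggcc
The 4 sequences hold 7, 12, 30 and 46 CG dinucleotides, in this order. The ratio of CG found to that expected from the C and G content (CpG observed over expected) was 0.24 for Fam83e, 0.36 for Vwa7, 0.87 for Tax1bp3 and 0.93 for Begain.

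The members' windows ranged from 0.502 to 121 RPKM in the Nedd4+/+ library, with a median of 1.12 RPKM. In read pairs this was 21 to 5040, with a median of 46.5. The genes themselves had a median of 0.249 RPKM, above the 0.120 RPKM of the other silent lines. The window stood at a median of 5.32 times the level of its gene. At the low end 96 members lay between 0.5 and 1 RPKM, and 64 reached 2, 27 reached 5 and 7 reached 10 RPKM. Just inside the upstream threshold were Ccdc103 (0.502 RPKM), Rin1, Zfp651, Lrrc48 and Mn1 (0.510 RPKM). Just outside it were Acad12 (0.494 RPKM), Mdh1b, Doc2g, Adcy9 and Itga10 (0.493 RPKM). Kctd11 (0.497 RPKM), Ccdc116, Apoe and Ccrl1 sat just under the gene threshold, and Cage1 (0.503 RPKM), Cdh24 and Nradd just above it. The members are thus the upper end of a continuous range.

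The windows were read again in the Nedd4-/- library, which the choice had not used. There 200 of 216 (92.6%) were again at 0.5 RPKM or more, against 366 of 10166 other silent lines (3.60%). The levels ran from 0.262 to 134 RPKM with a median of 1.14 RPKM, and the 16 windows under the threshold lay between 0.262 and 0.4996 RPKM. Across the 216 windows the levels of the libraries went together, with a Pearson correlation of 0.947 on log2 levels and a Spearman correlation of 0.899. Both axes share the same windows and annotation. The gene itself was below 0.5 RPKM in 174 of 216 (80.6%), with a median of 0.358 RPKM. Applied to the Nedd4-/- library alone, the same rule took 506 lines, and 159 were in both sets, which is 73.6% of the members and 31.4% of the Nedd4-/- set. Of the 57 members outside the second set, 41 left only because the gene was at 0.5 RPKM or more, 15 only because the window was lower, and 1 for both. Low levels were higher throughout the Nedd4-/- library: the median of the other silent lines was 0.120 and 0.25 RPKM for the gene and 0.0800 and 0.180 RPKM for the window. The gene was higher in that library in 84.7% of the members and 90.7% of the other silent lines. The part of these higher low levels in the size of the second set was not tested. In RNA from many cells, fewer cells of a kind and less RNA per cell cannot be told apart.

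**Figure D1:**
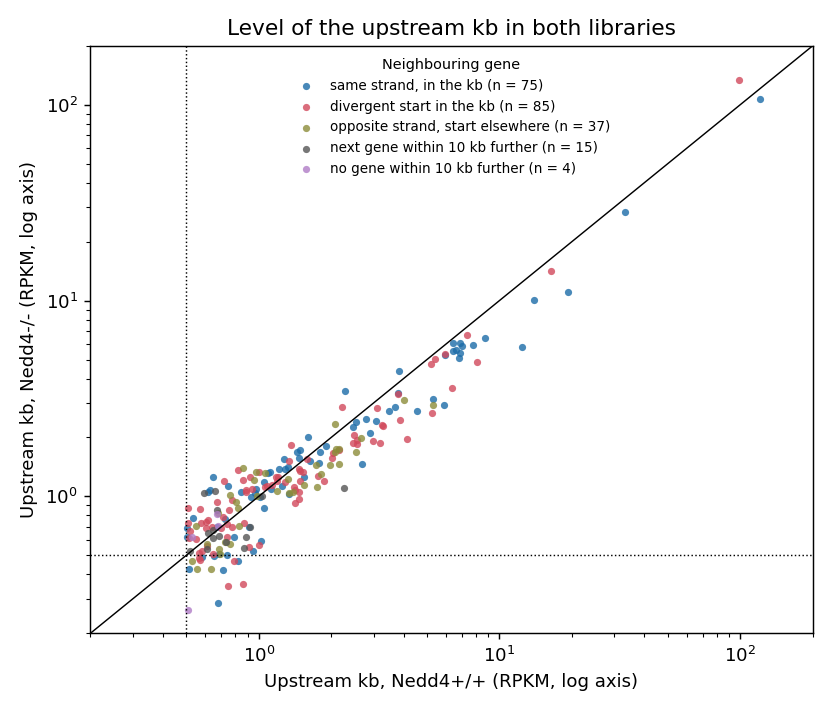
Level of the upstream kb of 216 members in the Nedd4+/+ library (x, RPKM, log axis) and in the Nedd4-/- library (y, RPKM, log axis), coloured by the annotated neighbouring gene, with 1 library per axis. The solid line marks equal levels and the dotted lines the threshold of 0.5 RPKM. Points lie along the line over the whole range, 200 of them above the horizontal threshold, and the window of Tex14 is the upper of the pair near 100 RPKM.

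Of the 216 windows, 197 (91.2%) overlapped another annotated gene on GRCm38. For 75 (34.7%) it ran on the same strand as the member, for 85 (39.4%) it started within the kb in the opposite direction (a divergent start), and for 37 (17.1%) it lay on the opposite strand with its start elsewhere. Where several genes applied, they were ranked in this order. For 15 more (6.94%) the next gene came within 10 kb beyond the window, and 4 (1.85%) had none there. Among the other silent lines, 1773 of 10039 placed on the reference (17.7%) had a gene in the kb. Among coding lines with a gene at 0.5 RPKM or more and the same upstream level, 1892 of 2612 (72.4%) had one. An exon of another gene lay in 188 windows (87.0%), against 10.4% of the other silent lines and 67.6% of the coding lines with an active gene. Exons of the member gene itself, from other transcripts, lay in 61 (28.2%), against 30.5% and 37.5%. The windows of the files are on mm9 and the neighbours on GRCm38, so a window can be misplaced where the annotated start moved. Over the 144 members whose start is annotated within 50 bases of the same place by RefSeq and GENCODE, 132 (91.7%) had a gene in the kb. In the set chosen by the same rule in the Nedd4-/- library the share was 53.8%.

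**Figure D2:**
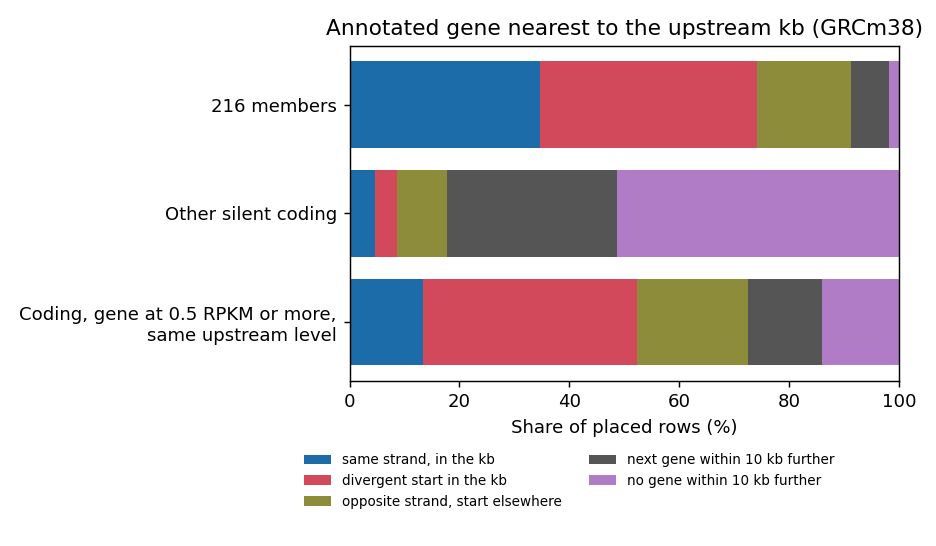
Share of lines (x, percent) by the annotated gene nearest to the upstream kb, for the 216 members, the other silent coding lines and coding lines with a gene at 0.5 RPKM or more and the same upstream level. A gene lies in the kb, in blue, red and olive, for 91.2%, 17.7% and 72.4% of these sets.

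A level was measured for 180 of the 197, with a median of 4.86 RPKM in the Nedd4+/+ library and 3.86 RPKM in the Nedd4-/- library, and 171 (95%) were at 1 RPKM or more. Of the neighbours of other silent lines, 146 of 841 (17.4%) were at that level, with a median of 0.171 RPKM. Read the other way, the share of members among silent lines with a measured gene in the kb was larger where this gene was more active. It was 9 of 704 (1.28%) where this gene was under 1 RPKM. It was 82 of 178 (46.1%) at 1 to 5 RPKM, 68 of 111 (61.3%) at 5 to 20 RPKM and 21 of 28 (75%) at 20 RPKM or more. The window's median level over these silent lines went from 0.102 to 0.425, 0.820 and 2.83 RPKM. Reads of a gene with exons in the window can count in the upstream level that chose the members. The shares by neighbour level are thus partly built in and are a description. At 1 to 5 RPKM, 55.4% of silent lines with a same-strand neighbour and 62.7% of those with a divergent start were members, and 22.2% of those with an opposite-strand gene that starts elsewhere. The 9 members with a neighbour under 1 RPKM included Zpbp, a gene of the sperm acrosome, whose window was at 1.19 and 1.07 RPKM beside Spata48 at 0.389 and 0.165 RPKM.

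**Figure D3:**
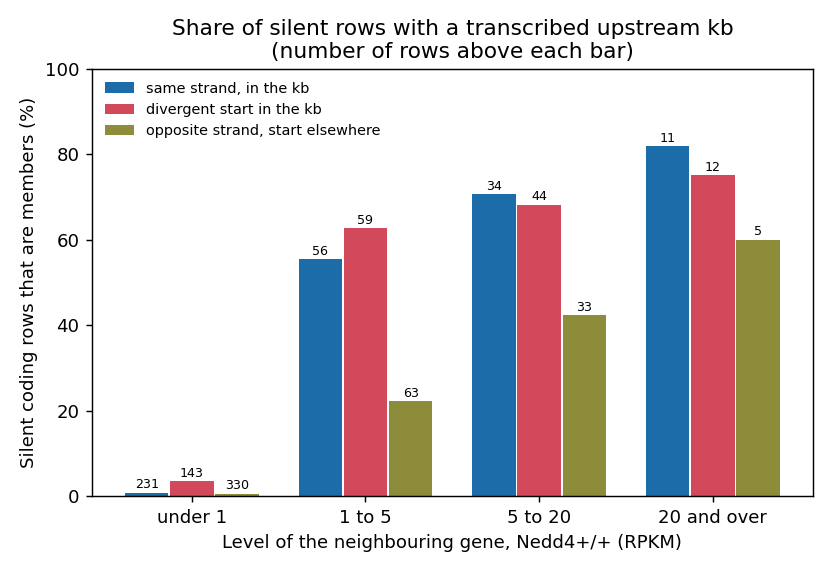
Share of silent coding lines that are members (y, percent) by the level of the gene in the upstream kb in the Nedd4+/+ library (x, RPKM) and by its arrangement, with the number of lines above each bar. The share is 0.866%, 3.50% and 0.606% for neighbours under 1 RPKM and 81.8%, 75% and 60% for those at 20 RPKM or more, where the bars rest on 11, 12 and 5 lines.

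The window was lower than its neighbour in 172 of 180 members and stood at a median of 0.288 of its level. Among windows that hold exon bases of the neighbour, the ratio was larger where more were covered: the median was 0.186 with 1 to 300 exon bases (61 members), 0.307 with 301 to 600 (66 members) and 0.492 with more than 600 (48 members). The other 5 members had none of the neighbour's exon bases in the window and a median of 0.214, above that of the 1 to 300 range. Across the 180 members the Spearman correlation of window and neighbour was 0.56 in the Nedd4+/+ library and 0.54 in the Nedd4-/- library. Window and neighbour were read in the same libraries and can share reads. Among the 8 windows at or above their neighbour were Tex14, Tax1bp3, Cct6b (5.97 RPKM beside Zfp830 at 3.38 RPKM) and Tmc4 (4.53 RPKM beside Mboat7 at 4.19 RPKM).

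Behind a gene on the same strand, the windows had a median of 1.44 RPKM in the Nedd4+/+ library and 1.47 RPKM in the Nedd4-/- library. The Fam83e window was at 33.4 and 28.3 RPKM in the Nedd4+/+ and Nedd4-/- libraries and the gene at 0.415 and 0.507 RPKM. The gene before it, Rpl18, encodes a ribosomal protein and was at 50.4 and 42.1 RPKM, with 399 exon bases in the window. Vwa7 had 19.2 and 11.0 RPKM upstream and 0.361 and 0.452 RPKM in the gene, behind Vars, the valyl-tRNA synthetase gene, at 51.5 and 27.5 RPKM. Thus the window and the neighbour of Vwa7 were both lower in the Nedd4-/- library, and the gene was not. Ly6g5b, a Ly6 family gene also on chromosome 17, had 8.69 and 6.43 RPKM behind Csnk2b, a casein kinase subunit gene, at 36.9 and 28.5 RPKM. Slc44a4, of the choline transporter-like family, had 7.74 and 5.92 RPKM behind Ehmt2, a histone methyltransferase gene, at 20.9 and 14.2 RPKM. Rilp, a lysosomal Rab effector gene, had 6.87 and 6.08 RPKM behind Prpf8, a core spliceosome gene, at 36.0 and 25.6 RPKM. Ctxn1, a neuronal membrane protein gene, had 6.58 and 5.60 RPKM behind Timm44, a mitochondrial import gene, at 15.1 and 11.7 RPKM. In each of these 6 the window stood well above its own gene and below its neighbour.

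A few same-strand windows had no measured gene as their nearest partner. The window of Srd5a1, a steroid reductase gene, was at 13.9 and 10.03 RPKM. It lies in Gm17108, which has no level in the table, and also holds part of Nsun2, an RNA methyltransferase gene at 29.9 and 21.9 RPKM. Olfr66, an olfactory receptor, was at 0.000763 RPKM in the Nedd4+/+ library and 0.261 RPKM in the Nedd4-/- library, with 6.87 and 5.4 RPKM upstream. Its window overlaps Dnajc19-ps, a processed pseudogene of Dnajc19, and Dnajc19 itself was at 3.86 and 2.40 RPKM. How reads that match both copies were assigned is not given in the sources used here, so this window's level is uncertain. Olfr66 was the only member among 1438 silent lines of olfactory and vomeronasal receptors.

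With a divergent start in the kb, the windows had a median of 1.18 and 1.19 RPKM in the Nedd4+/+ and Nedd4-/- libraries. Tax1bp3, a PDZ domain gene, had 16.4 and 14.1 RPKM upstream and 0.412 and 0.693 RPKM in the gene, divergent from Emc6, a gene of the endoplasmic reticulum membrane complex, at 14.7 and 12.5 RPKM. Wdr65 had 8.06 and 4.85 RPKM divergent from Ebna1bp2, a ribosome assembly gene, at 13.7 and 9.20 RPKM. RefSeq and GENCODE place the start of Wdr65 380 bases apart, and exons of Wdr65 itself cover 125 bases of the window. Ccdc151, needed for dynein arms of cilia, had 5.25 and 2.66 RPKM divergent from Prkcsh, a glucosidase subunit gene, at 20.8 and 11.4 RPKM. In each of these pairs the annotated start of the other gene lies in the window, and which strand the reads came from is not known. For 81 divergent members the partner also has a line in the table, and in 80 of them the partner's own upstream window was lower than the member's. The partners' windows had a median of 0.268 RPKM, and 71 of 81 were under 0.5 RPKM. The partner's window covers the start of the member gene, whose level the rule bounded, so this asymmetry is a description. The exception was Rnf151, whose window was at 0.564 RPKM while that of its partner Rps2 was at 16.4 RPKM.

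Tex14 departed from this pattern. Tex14 encodes a protein of the bridges between germ cells, and its gene was at 0.147 and 0.241 RPKM. Its window was at 98.8 RPKM in the Nedd4+/+ library and 134 RPKM in the Nedd4-/- library. The annotated divergent neighbour, the recombination gene Rad51c, was at only 1.30 and 1.37 RPKM, and Rad51c's own upstream window at 0.143 and 0.0730 RPKM. The window was thus 76.3 and 97.2 times the level of its neighbour, and the next largest windows of the class were no more than 16.4 RPKM in the Nedd4+/+ library. The log2 ratio of Nedd4-/- to Nedd4+/+ was 0.44 (counting interval 0.37 to 0.50). RefSeq lists 2 curated transcripts of Tex14 and the reference places 4 genes of the U3 small nucleolar RNA inside Tex14. Where the deposited transcript starts on mm9 relative to these genes was not tested, so the placement of this window is uncertain.

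Windows reached by an opposite-strand gene that starts elsewhere had a median of 1.06 and 1.12 RPKM and a highest level of 5.30 RPKM. Xrra1 had 5.30 and 2.93 RPKM upstream and 0.258 and 0.243 RPKM in the gene, with Spcs2, a signal peptidase subunit gene, at 26.7 and 14.3 RPKM. Arsg, a lysosomal sulfatase gene, had 2.54 and 1.68 RPKM with Slc16a6 at 6.51 and 3.68 RPKM, although its start is annotated differently by RefSeq and GENCODE. The ion channel genes Cacna1d (0.820 and 0.875 RPKM upstream) and Cacna1c (0.609 and 0.570 RPKM upstream) both had a decapping enzyme gene in the window, Dcp1a at 6.68 and 5.15 RPKM and Dcp1b at 1.09 and 0.840 RPKM. Neither neighbour had exon bases there.

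For 19 members no other annotated gene lay in the kb. In 6 of them exons of the member gene itself, from other transcripts, lay there, and in Plekhn1 (1.03 and 1.01 RPKM) they filled all 1000 bases. Their windows were between 0.510 and 2.27 RPKM, with a median of 0.669 RPKM in the Nedd4+/+ library and 0.650 RPKM in the Nedd4-/- library, and 18 of the 19 were again at 0.5 RPKM or more. Msh4, a meiotic recombination gene, was the highest with 2.27 and 1.11 RPKM, with Rabggtb, at 22.5 and 17.8 RPKM, as the next gene. RefSeq and GENCODE place its start 1247 bases apart, so its place among the windows without another gene is uncertain. The other windows were at 1.03 RPKM or less. Where the next gene lay within 10 kb further, it had a level in 13 of 15 cases, from 4.83 to 129 RPKM. This range has no background from other silent lines in that arrangement and is a description. Lct, the lactase gene, had 0.729 and 0.585 RPKM near Mcm6, a replication helicase gene at 69.1 and 49.5 RPKM. Apoe, a lipid carrier gene, had 0.669 and 0.853 RPKM near Tomm40 at 28.7 and 20.4 RPKM. Erp27 had 0.592 and 1.04 RPKM near Arhgdib at 129 and 89.4 RPKM. Only 4 had no gene within 10 kb beyond the window: Begain, a gene of neuronal synapses, with 0.670 and 0.809 RPKM, Mn1 with 0.510 and 0.262 RPKM, and the predicted genes BC057022 and Gm13152, named after their values were seen, with 0.677 and 0.526 RPKM in the Nedd4+/+ library. The annotated starts of Gm13152 lie 6914 bases apart, and of the 4 only Begain is among the members with starts within 50 bases in both annotations.

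Between the libraries most windows lay within 2-fold of each other. The log2 ratio of Nedd4-/- to Nedd4+/+ (0.1 RPKM added to each) ran from -1.08 to 0.87 with a median of -0.14. Of the 216, 0 were higher by 2-fold or more in Nedd4-/- cells and 4 were lower by as much. Relative to the median of all windows, 0 were higher and 28 lower by 2-fold or more. The share of all windows past 2-fold after this shift was not computed, so nothing is read from the 28. Without that shift, 19.8% of all 11837 windows whose mean reached 0.2 RPKM were higher and 0.794% lower by 2-fold or more. Their median was 0.41. Among the 3584 windows at 0.5 RPKM or more in the Nedd4+/+ library, as the rule requires of members, the unshifted shares were 0.363% and 2.15%. The coding lines with the same upstream level and a gene at 0.5 RPKM or more had a median of -0.17, near that of the members. Because the rule asks for a high Nedd4+/+ value, nothing about genotype is read from these shares. The counting interval of the ratio, an exact 95% interval from read pairs that covers counting error only, lay above 0 in 9 members, below 0 in 35 and across 0 in 172. Such intervals were not computed for other windows, so these counts have no background and are a description.

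The 4 windows past 2-fold were those of Ccdc116 (0.863 and 0.358 RPKM), Izumo1 (0.677 and 0.284 RPKM) and the predicted genes BC048644 (12.4 and 5.80 RPKM) and 2010109A12Rik (4.11 and 1.96 RPKM), the last pair named after their values were seen. The first pair rests on 36 and 11 read pairs for Ccdc116 and 28 and 9 for Izumo1, a sperm protein gene needed for fusion with the egg. The lowest ratios also included Msh4 (-0.97), Bbs1 (-0.97), Ccdc151 (-0.96) and Atp6v1g2 (-0.91). Bbs1, a gene of cilia, had 5.86 and 2.94 RPKM upstream behind Dpp3, a peptidase gene at 16.3 and 9.02 RPKM. The highest ratios were those of Necab3 (0.87), Erp27 (0.72), Dnase1l2 (0.70), Lrrc48 (0.67), L3hypdh (0.67) and Ccdc87 (0.67), all with windows under 1 RPKM in the Nedd4+/+ library. Necab3, with 27 and 39 read pairs, lies behind the cell cycle factor gene E2f1 at 2.13 and 1.70 RPKM.

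The ratio varied with the level of the window. Between 0.5 and 1 RPKM the median log2 ratio was 0.06, and 53 of 96 members were higher in the Nedd4-/- library. Between 1 and 2 RPKM it was -0.09 (21 of 56 higher), between 2 and 5 RPKM -0.34 (4 of 37) and at 5 RPKM or more -0.24 (1 of 27, Tex14). The coding lines with an active gene gave 0.02, -0.18, -0.35 and -0.43 in the same ranges. The higher low levels of the Nedd4-/- library, given above, lie in the same direction, and their part was not tested. Over the 180 members with a measured gene in the kb, the log2 ratios of window and neighbour had a Pearson correlation of 0.44 and a Spearman correlation of 0.41. The correlation was larger in windows with many reads. At 2 RPKM or more, 57 windows had a median log2 ratio of -0.33 and their neighbours -0.36 (1 RPKM added), with a Pearson correlation of 0.75 and a Spearman correlation of 0.78. Under 1 RPKM, 72 windows had a median of 0.09 and their neighbours -0.24, with a Spearman correlation of 0.11. Window and neighbour shared both libraries in each of these points and can share reads.

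**Figure D4:**
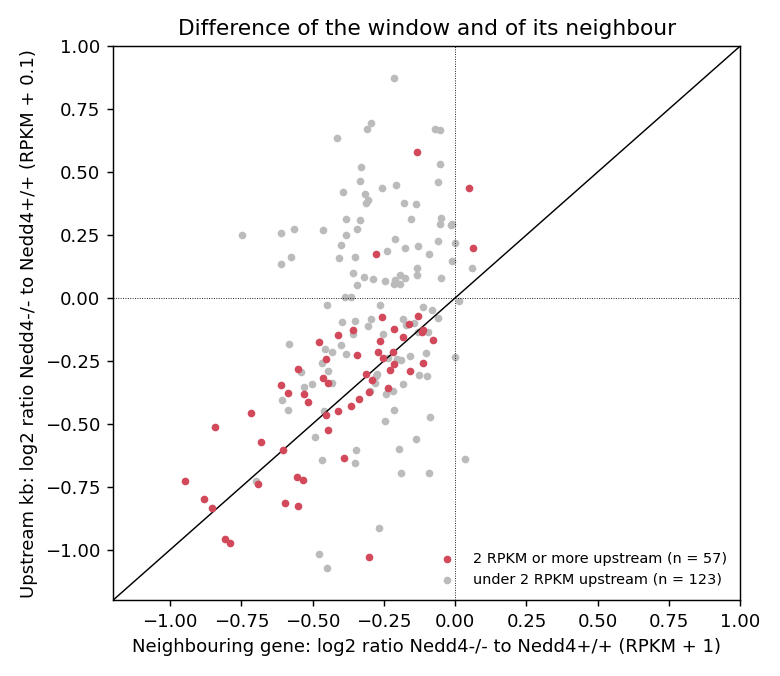
Log2 ratio of Nedd4-/- to Nedd4+/+ for the neighbouring gene (x, 1 RPKM added) and for the member's upstream kb (y, 0.1 RPKM added), for 180 members with a measured gene in the kb. The 57 windows at 2 RPKM or more (red) lie mostly near the line of equal ratios, and the 123 lower windows (grey) spread around it. The 72 of these under 1 RPKM had a median of 0.09, above the median of -0.24 of their neighbours.

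A promoter sequence in RefSeq was matched to 178 members and to 16118 coding lines in all. CpG observed over expected had a median of 0.70 in the members, 0.28 in the other silent lines and 0.84 in the coding lines with the same upstream level and a gene at 0.5 RPKM or more. By arrangement, members with a divergent neighbour had a median of 0.81 (75 members), and those with an opposite-strand gene starting elsewhere 0.82 (31 members). Those behind a gene on the same strand had a median of 0.36 (57 members), nearer to the 0.29 of other silent lines in that arrangement. A ratio of 0.6 or more was found in 85.3% of the divergent members, 29.8% of the same-strand members and 23.5% of all other silent lines. The divergent silent lines that were no members had a median of 0.63, with 53.3% at 0.6 or more. The sequence of a divergent pair covers the start region of both genes.

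**Figure D5:**
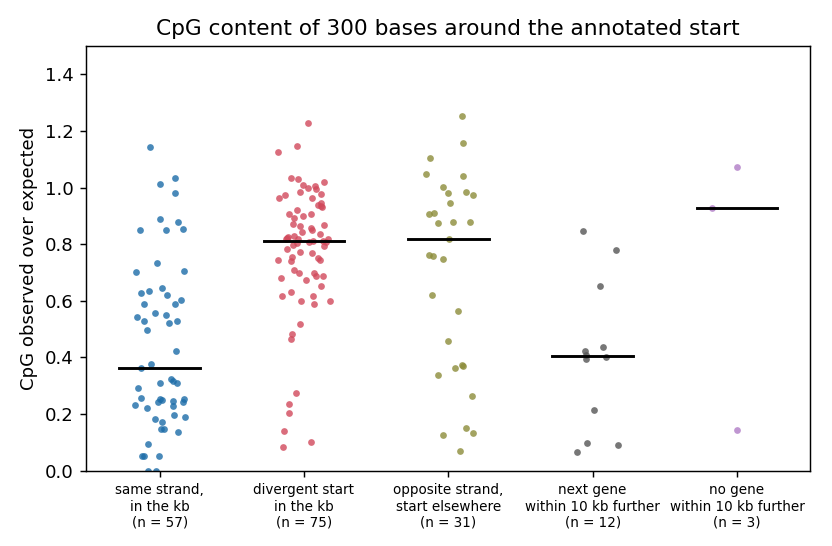
CpG observed over expected in 300 bases around the annotated start (y) of the 178 members with a RefSeq promoter, by neighbouring gene (x), with 1 point per member and a line at the median. The medians are 0.36 for a same-strand gene, 0.81 for a divergent start and 0.82 for an opposite-strand gene starting elsewhere. They are 0.41 for a gene within 10 kb further and 0.93 for none, and rest there on only 12 and 3 members.

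Short motifs were counted on both strands of the same 300 bases. TATAAA, the TATA box core, was in 4.49% of the members, 12.9% of all coding promoters and 19.7% of the other silent lines. GGGCGG, the core of the GC box, was in 57.3% of the members and 49.2% of all, and CCAAT in 38.2% and 39.1%. CCGGAAG, a core of ETS factor sites, was in 17.4% of the members and 12.6% of all, with 28% of the divergent members and 7.02% of the same-strand members. ATGCAAAT, the octamer of immunoglobulin promoters, was in 1 member (0.562%) and 1.64% of all. AATAAA, the letters of the poly(A) signal, was in 8.99% of the members and 16.1% of all. In the other silent lines GGGCGG was in 30.4%, CCAAT in 38.5%, CCGGAAG in 3.07%, ATGCAAAT in 1.97% and AATAAA in 21.8%. The coding lines with the same upstream level and an active gene had TATAAA in 5.87%, GGGCGG in 66.2% and CCAAT in 38.4%. They had CCGGAAG in 26.7%, ATGCAAAT in 1.18% and AATAAA in 10.2%. Among them CCGGAAG was in 31.6% of the divergent and 28.3% of the same-strand lines. A match says only that the letters are present, and the CpG content of the sets differs as given above.

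Gene families were counted by symbol. Of all silent lines 2.08% were members, and with so few lines per family no low count is read as a result. None of the silent keratins (103 lines), protocadherins (49), serpins (50) or MHC genes (10) was a member, and 1 of 91 cytochromes P450 (Cyp27b1), 1 of 93 Zfp genes (Zfp651), 1 of 169 genes with immune surface or cytokine names (Ly6g5b) and 1 of 138 genes of the developmental factor families (Foxa3) were. Solute carriers gave 4 of 200 and channel subunits 4 of 119. Predicted names gave 39 of 1205 (3.24%), which is 18.1% of the members and 11.6% of the silent lines. A further list took beginnings of symbols that include genes of cilia and sperm. Ccdc, which gave 11 of the members it took, stands for coiled coil, so the list is not specific to cilia or sperm. This list of beginnings (Ccdc, Dnah, Dnaic, Rsph, Morn, Spata, Spag, Iqc, Ttc, Tekt, Odf, Ropn and numbered Tex) was written after the members had been seen, so its counts carry no support. It took 24 members of 180 silent lines (13.3%), against 2.08% of all silent lines. All 24 had a gene in the kb, 15 of them a divergent start. Of the list's silent lines placed on the reference, 59 of 179 (33.0%) had a gene in the kb, against 1970 of 10255 silent lines (19.2%). Examples are Morn1 (3.86 and 2.45 RPKM upstream, divergent from Rer1 at 24.2 and 18.3 RPKM), Rsph6a of the ciliary radial spoke (3.67 and 2.87 RPKM, behind Sympk at 11.99 and 7.51 RPKM) and Dnahc10, a dynein heavy chain gene (1.27 and 1.56 RPKM, behind Atp6v0a2 at 7.21 and 4.55 RPKM). Sympk, a polyadenylation factor gene, lies between Rsph6a and Foxa3 and was the neighbour of both. The Foxa3 window was at 0.616 and 0.755 RPKM.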

How the data were processed

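RNA of splenic B cells was measured in 1 Nedd4+/+ and 1 Nedd4-/- library, grouped by title. Per the submitters' processing notes TopHat, Cufflinks and mm9 were used, with no version or role given. The strand setting is not given in the sources used here. Gene values are RPKM as deposited by the authors, per the file headers. The second deposited column is a ratio, read from its values: the level of the upstream kb over the gene's RPKM plus 0.0001. Multiplying back gave whole read bases in 99.99% of 14140 low windows of the Nedd4+/+ library and 100% of 8122 of the Nedd4-/- library (tolerance 0.05 bases). That product is the upstream level.

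Members were found by the rule on Nedd4+/+ values. Upstream ratios were log2 with 0.1 RPKM added, over windows whose mean reached 0.2 RPKM, called at 2-fold. Neighbour ratios added 1 RPKM. These scales understate the difference of low windows. A read pair was taken as 202 bases, from reads of 101 bases. Counting intervals are exact Clopper-Pearson 95% intervals. Without molecular identifiers reads can be copies of 1 molecule, so these intervals cover counting error only. With 1 library per group no test was made.

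Neighbours came from GENCODE M21 and promoters from RefSeq, both on GRCm38 while the files are on mm9. All 216 members were placed, 210 by RefSeq transcript and 6 by symbol. The genes named are the 12 highest windows, the 6 highest and 6 lowest log2 ratios, the 5 lines nearest each side of each threshold and the 3 highest per neighbour class and per ratio of window to gene, without predicted symbols. Some genes that this rule takes are not reported here. Genes given as examples of families, shared neighbours or exceptions (among them Zpbp, Cct6b, Tmc4, Rnf151, Lct, Apoe, Cacna1d, Cacna1c, Morn1, Rsph6a, Dnahc10, Foxa3) and the 4 sequences were chosen after their values were seen. Members and lists were chosen with earlier results of these data known. Steps were tested on simulated data. Python 3.11.15, numpy 2.4.6, pandas 2.3.3 and scipy 1.17.1 were used. Alternatives covered the thresholds, the pseudocount, the scaling, the library used by the rule, the length of the window and the type of neighbour.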

Additional observations from a re-analysis of the deposited data

How the results depend on the processing

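The number of members followed the thresholds: 120 with 1 RPKM and 750 with 0.25 RPKM upstream, 108 with 0.25 RPKM and 380 with 1 RPKM for the gene. The share again at 0.5 RPKM or more in the Nedd4-/- library was 100% for members at 1 RPKM or more and 73.1% with that library scaled to a median ratio of 1. The median log2 ratio was -0.56 relative to the median of all windows, -0.023 with the rule on the mean of both libraries and -0.031 over windows with no gene in the kb, and it reversed to 0.78 with the rule in the Nedd4-/- library. The median ratio thus had a different sign with each choosing library, and why it did was not tested. It kept its sign with 0.5 RPKM (-0.11) or 0.01 RPKM (-0.15) added and without Tex14 (-0.14, added after the data were seen). The median gene level in the Nedd4-/- library was 0.306 RPKM with a gene threshold of 0.25 RPKM. A gene lay in the window for 96.3% with 2 kb, 87.0% with coding neighbours only and, as alternatives added after the data were seen, for 91.7% of members with starts within 50 bases in both annotations and 53.8% of the set chosen in the Nedd4-/- library. The median CpG ratio was 0.41 over the 15 members with a promoter sequence and no gene in the kb. Some 20.8 and 15.3 read pairs lie behind a window at the threshold, which limits the precision there. No paired analysis was possible because each group has 1 library and the labels carry no replicate numbers.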
